A study of Homo sapiens with 12 samples.

Results

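The genes described here are 38 hnRNP, SR and FET RNA-binding protein genes, with the close relatives GRSF1, RALY, SYNCRIP, TRA2A and TRA2B. They were taken by gene symbol from a list and make up 38 of the 19219 gene rows of the deposited table. Of the 38, 35 could be compared between groups. PTBP2 and HNRNPUL2 lay below the level minimum used for ratios, and the row of TAF15 was set aside for a reason given below.

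The table comes from ribosome profiling, in which mRNA fragments covered by ribosomes are sequenced, of the established human line HEK293, derived from embryonic kidney. Its groups are 1 sample labelled as a CNBP knockout and 3 wild-type samples with harringtonine plus cycloheximide, and 3 knockout and 5 wild-type samples with cycloheximide. Harringtonine holds ribosomes that have just initiated, and cycloheximide arrests elongating ones. CNBP is a zinc-finger protein that binds G-rich RNA, and the series asks whether its loss alters translation. Both knockout columns carry the name KO6, so a property of 1 clone and an effect of the knockout cannot be told apart. Whether the samples within a group were grown as separate cultures is not stated.

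The hnRNP proteins coat nascent transcripts and often repress the use of nearby exons, whereas SR proteins bind exonic enhancers and recruit the spliceosome through domains rich in arginine and serine. FET proteins join transcription to RNA processing and are known for their gene fusions in sarcoma. Many genes of these families limit their own protein through alternative exons that send the mRNA to nonsense-mediated decay.

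Some transcription start sites of the genes are shown because start-site sequence is a feature of these genes that their choice did not use. RefSeq promoter sequences (build GRCh38.p14) matched 34 of the 38 genes, and HNRNPA1, SRSF2, TAF15 and TRA2A were not matched. Each run below covers 10 bases before and 20 bases from a listed start, written 5′ to 3′ on the transcribed strand, with GCCATTT in capitals. The first 7 runs hold the whole motif, and the last 2, from genes with low ratios described further on, do not. The first 7 were picked for the motif from 47 listed starts, so they do not show how common it is. HNRNPH1 has 4 listed starts and HNRNPUL1 has 3, and those not printed lack the motif.
HNRNPD (chr4:82373972-82374001, minus strand): ccgttcttccgtcgGCCATTTtaggtggtc
HNRNPH1 (chr5:179623382-179623411, minus strand): ggccgccGCCATTTcctttcctctacgctg
HNRNPH1 (chr5:179623652-179623681, minus strand): gcccgctgGCCATTTcgtcttagccacgca
HNRNPR (chr1:23344265-23344294, minus strand): tggcgcgcgcGCCATTTctagtcgttttca
HNRNPUL1 (chr19:41264362-41264391, plus strand): ggcggcgGCCATTTtgagccgctgccgcca
SRSF1 (chr17:58007227-58007256, minus strand): tgataaaggcGCCATTTtggaggggccgcg
SRSF3 (chr6:36594352-36594381, plus strand): aggcggtggtccGCCATTTcgtggacgccg
HNRNPA3 (chr2:177212784-177212813, plus strand): cgagtccggtctcaaaatggaggtaaaacc
HNRNPU (chr1:244864524-244864553, minus strand): gctcctgcgagaggacgttgcgtgctcgct

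In all, 4 sequence features were searched, and all 4 are given. A C at the start followed without a break by pyrimidines, in a run of at least 5, was found in 2 of the 34 genes (5.88%) and in 6.32% of 14156 genes of the deposited table with a RefSeq promoter. GGG in the first 50 transcribed bases was found in 24 of 34 (70.6%), against 70.1%. These features did not set the genes apart. After the members' sequences had been read, GCCATNTT was searched on both strands of the 300-base promoters and found in 6 of 34 (17.6%), against 9.95%. GCCATTT, whose matches overlap with those of GCCATNTT and whose reverse complement is AAATGGC, was searched last and found in 10 of 34 (29.4%), against 5.74%. Both motifs were picked by eye from these same promoters, so a higher share among these genes is partly built in by that choice, and it is given as a description with no test. Of the genes whose start runs are printed with the motif, the knockout ratios with cycloheximide given below run between -0.74 (HNRNPH1) and 0.18 (HNRNPUL1). The other genes with GCCATTT in the 300 bases are HNRNPC, HNRNPH3, HNRNPM and PTBP1, and theirs run between -0.85 (HNRNPH3) and -0.32 (PTBP1).

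Density, the deposited unit, is footprints per listed length of the longest transcript, on a scale the sources used here do not state. The 4 groups held an estimated 400911 (knockout) and 1133894 (wild type) effective reads with harringtonine, and 848603 (knockout) and 2142734 (wild type) with cycloheximide. Effective reads are read numbers recovered from the steps between low densities. CNBP itself had a density of 2.36 in the knockout and 3.27 in wild type with harringtonine, and 2.20 in the knockout and 3.73 in wild type with cycloheximide. Footprints on CNBP thus persisted in the samples labelled as knockout, and the altered part of the gene is not given, so this density does not check the label. Of 9 marker genes of blood, liver and connective tissue, 5 in the knockout and 5 in wild type were listed at 0 with harringtonine, and 7 in the knockout and 5 in wild type with cycloheximide. The highest density among these 9 was 0.134, in the knockout with harringtonine. Of 8 HEK293 markers, 7 had a row. NEFM was listed at 0 in all 4 groups and PAX2 in the knockout with harringtonine. The densities of the HEK293 markers found summed to between 2.74 (knockout, cycloheximide) and 6.01 (wild type, harringtonine). A single gene gave 1.43 of the former sum and 3.95 of the latter.

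Only 1 mean per group was available, so no spread between samples, standard deviation or test can be given. Intervals are 95% Clopper-Pearson intervals on effective reads and cover counting error only. A ratio is log2 of the knockout mean over the wild-type mean, or of harringtonine over cycloheximide, minus the median over the 6045 genes compared, so 0 is the median gene. In bulk libraries fewer cells of a kind and less RNA per cell cannot be told apart, and less mRNA cannot be told apart from fewer ribosomes per mRNA by density alone.

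The genes were among those with the higher footprint densities in these cells. Their level, the geometric mean of the 4 densities, had a median of 1.07 over the 35 genes and 0.250 over all genes compared, and 17 of them lay in the top decile of genes by level. The plot of densities by group gives all 4 values of each gene. With harringtonine the usable members together took 1.01% of effective reads in the knockout (95% interval 0.976% to 1.04%) and 1.08% in wild type (1.06% to 1.09%). With cycloheximide the shares were 0.808% in the knockout (0.790% to 0.828%) and 1.26% in wild type (1.24% to 1.27%). The shares depend on the total reads of all genes and are not centred on the median gene. They therefore do not show whether the members differ between the treatments. The members' densities summed to 52.6 in the knockout and 80.4 in wild type with harringtonine, and 38.4 in the knockout and 63.9 in wild type with cycloheximide.

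**Figure D1:**
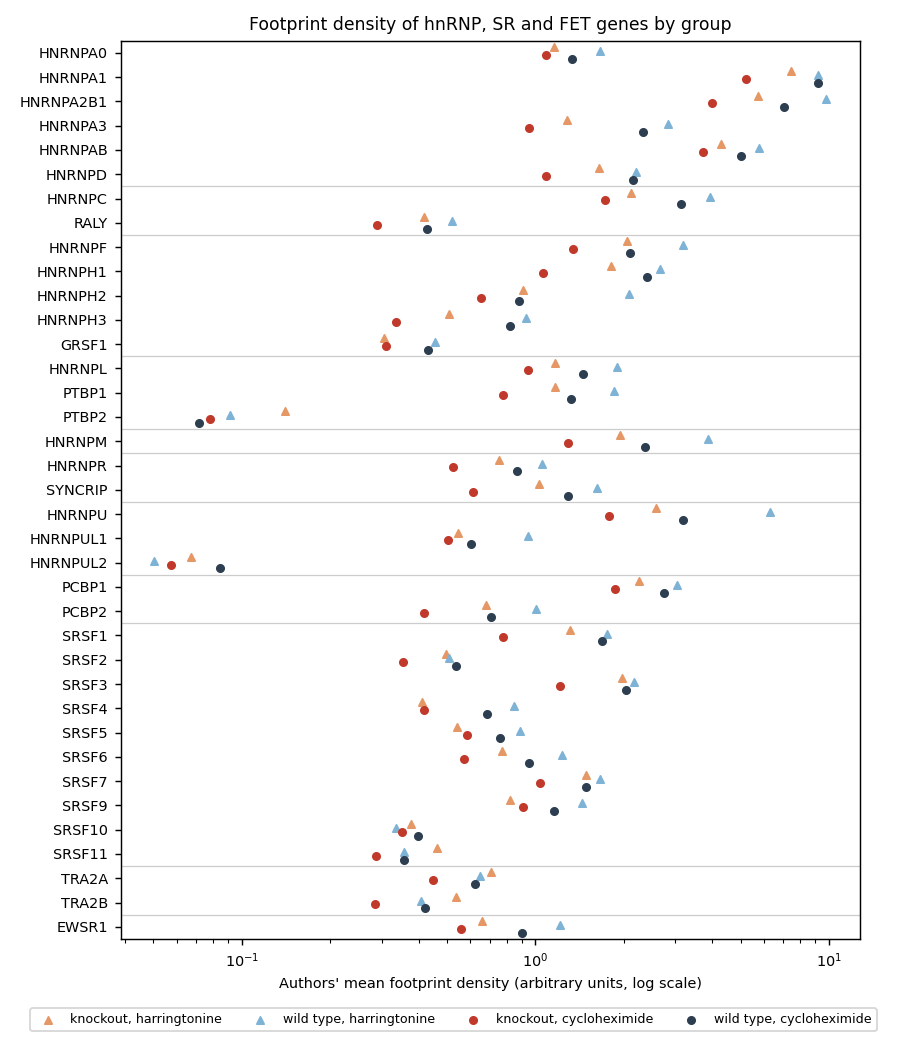
Footprint density (log axis, per listed transcript length) of the 37 genes with a usable row in the 4 groups, 1 authors' mean per group with no error bar, arranged by family. HNRNPA1 and HNRNPA2B1 have the highest densities, and PTBP2 and HNRNPUL2 the lowest.

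The most densely covered family was hnRNP A/B and D. HNRNPA1, a shuttling repressor of splicing, had 7.44 in the knockout and 9.15 in wild type with harringtonine, and 5.20 in the knockout and 9.16 in wild type with cycloheximide. HNRNPA2B1, which also takes part in RNA transport, had 5.71 in the knockout and 9.80 in wild type with harringtonine, and 4.01 in the knockout and 7.01 in wild type with cycloheximide. With harringtonine their ratios parted, at -0.01 (-0.16 to 0.13) for HNRNPA1 and -0.49 (-0.62 to -0.37) for HNRNPA2B1. With cycloheximide they were close, at -0.37 (-0.48 to -0.27) for HNRNPA1 and -0.36 (-0.46 to -0.27) for HNRNPA2B1.

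HNRNPA1 shares its sequence with an intronless copy, HNRNPA1L2, whose row held 441 effective reads in the knockout and 1105 in wild type with harringtonine, and 1003 in the knockout and 3855 in wild type with cycloheximide. HNRNPA1 had 580 in the knockout and 1373 in wild type with harringtonine, and 966 in the knockout and 3871 in wild type with cycloheximide. The numbers were close with cycloheximide and less so with harringtonine, where the copy had 76.0% of the reads of HNRNPA1 in the knockout and 80.4% in wild type. How reads that match both were counted is not stated, so the values of HNRNPA1 are uncertain. HNRNPA1L2 and HNRNPCL1, below, were singled out after their values were seen.

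HNRNPA3, a relative of HNRNPA2B1, had 1.29 in the knockout and 2.84 in wild type with harringtonine, and 0.953 in the knockout and 2.32 in wild type with cycloheximide. It stood low under both treatments, with ratios of -0.86 (-1.14 to -0.59) with harringtonine and -0.84 (-1.04 to -0.64) with cycloheximide. HNRNPD, also called AUF1, promotes decay of mRNAs with AU-rich elements. Its densities were 1.64 in the knockout and 2.21 in wild type with harringtonine, and 1.09 in the knockout and 2.15 in wild type with cycloheximide. The interval of HNRNPD covered the median gene with harringtonine, at -0.14 (-0.43 to 0.14), and lay below it with cycloheximide, at -0.54 (-0.75 to -0.33). HNRNPAB, at -0.15 (-0.43 to 0.13) with harringtonine and 0.0043 (-0.19 to 0.19) with cycloheximide, and HNRNPA0, at -0.24 (-0.67 to 0.18) with harringtonine and 0.15 (-0.13 to 0.43) with cycloheximide, stayed within counting error of the median gene.

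HNRNPC binds uridine-rich RNA and keeps cryptic exons out of mRNA. Its densities were 2.12 in the knockout and 3.94 in wild type with harringtonine, and 1.73 in the knockout and 3.14 in wild type with cycloheximide, giving -0.61 (-0.85 to -0.37) with harringtonine and -0.42 (-0.59 to -0.25) with cycloheximide. The near copy HNRNPCL1 had 1.48 in the knockout and 6.97 in wild type with harringtonine, and 1.73 in the knockout and 3.45 in wild type with cycloheximide, so reads shared between the copies cannot be told apart here. RALY, a close relative of HNRNPC, had only 24 effective reads in the knockout with cycloheximide, and its intervals span 0 under both treatments.

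HNRNPF, the HNRNPH genes and GRSF1 encode proteins that bind runs of G, the kind of sequence CNBP also binds. HNRNPH1 had 1.82 in the knockout and 2.67 in wild type with harringtonine, and 1.06 in the knockout and 2.40 in wild type with cycloheximide. HNRNPH3 had 0.509 in the knockout and 0.927 in wild type with harringtonine, and 0.334 in the knockout and 0.821 in wild type with cycloheximide. The ratio of HNRNPH1 was -0.27 (-0.51 to -0.03) with harringtonine and -0.74 (-0.93 to -0.55) with cycloheximide. That of HNRNPH3 was -0.58 (-1.19 to -0.01) with harringtonine and -0.85 (-1.31 to -0.42) with cycloheximide.

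HNRNPH2, on the X chromosome, followed another order. Its densities were 0.908 in the knockout and 2.09 in wild type with harringtonine, and 0.651 in the knockout and 0.879 in wild type with cycloheximide. The wild-type mean with harringtonine stood above the other 3, and the knockout ratio was -0.92 (-1.46 to -0.40) with harringtonine and 0.011 (-0.42 to 0.42) with cycloheximide. HNRNPF had ratios of -0.35 (-0.68 to -0.03) with harringtonine and -0.21 (-0.46 to 0.04) with cycloheximide. GRSF1, which works in mitochondrial RNA granules, had -0.29 (-0.86 to 0.25) with harringtonine and -0.04 (-0.39 to 0.30) with cycloheximide.

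PTBP1, a pyrimidine-tract repressor, had 1.16 in the knockout and 1.85 in wild type with harringtonine, and 0.778 in the knockout and 1.32 in wild type with cycloheximide, giving -0.39 (-0.72 to -0.06) with harringtonine and -0.32 (-0.58 to -0.07) with cycloheximide. Its neuronal relative PTBP2, whose mRNA PTBP1 is known to hold back through a skipped exon, had 0.14 in the knockout and 0.091 in wild type with harringtonine, and 0.078 in the knockout and 0.072 in wild type with cycloheximide. PTBP2 is below the level minimum and is left out of the counts below. On the same centre its ratio was 0.90 (0.18 to 1.61) with harringtonine, on 32 effective reads in the knockout and 40 in wild type. With cycloheximide it was 0.57 (0.008 to 1.12), on 42 in the knockout and 88 in wild type. HNRNPL, which binds CA repeats, had ratios of -0.41 (-0.83 to -0.01) with harringtonine and -0.17 (-0.46 to 0.11) with cycloheximide. HNRNPM, a regulator of alternative exons, had -0.71 (-1.05 to -0.38) with harringtonine and -0.43 (-0.69 to -0.17) with cycloheximide.

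SYNCRIP, also named hnRNP Q, had 1.03 in the knockout and 1.62 in wild type with harringtonine, and 0.612 in the knockout and 1.30 in wild type with cycloheximide. It was low under both treatments, at -0.37 (-0.67 to -0.08) with harringtonine and -0.64 (-0.88 to -0.40) with cycloheximide, and its paralog HNRNPR had -0.21 (-0.54 to 0.12) with harringtonine and -0.29 (-0.53 to -0.05) with cycloheximide. PCBP1 and PCBP2, which bind C-rich RNA, stayed within counting error of the median gene under both treatments, between -0.31 and -0.11.

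HNRNPU, a nuclear scaffold protein that binds RNA and chromatin, had 2.59 in the knockout and 6.30 in wild type with harringtonine, and 1.79 in the knockout and 3.19 in wild type with cycloheximide. Its ratio was -1.001 (-1.19 to -0.82) with harringtonine and -0.39 (-0.54 to -0.25) with cycloheximide. HNRNPUL1, a relative with a role in DNA repair, had 0.546 in the knockout and 0.941 in wild type with harringtonine, and 0.504 in the knockout and 0.605 in wild type with cycloheximide. For HNRNPUL1 the ratios were -0.50 (-1.07 to 0.04) with harringtonine and 0.18 (-0.20 to 0.56) with cycloheximide. HNRNPUL2, below the level minimum, had 0.067 in the knockout and 0.050 in wild type with harringtonine, on 7 and 9 effective reads. With cycloheximide it had 0.057 in the knockout and 0.084 in wild type.

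Among the SR genes, SRSF1, the founding member and a regulator of splicing and translation, had 1.31 in the knockout and 1.75 in wild type with harringtonine, and 0.774 in the knockout and 1.69 in wild type with cycloheximide. SRSF3, which together with SRSF7 links mRNA to the export receptor, had 1.98 in the knockout and 2.17 in wild type with harringtonine, and 1.21 in the knockout and 2.03 in wild type with cycloheximide. With harringtonine the intervals of SRSF1, at -0.13 (-0.53 to 0.26), and SRSF3, at 0.15 (-0.13 to 0.43), covered the median gene, and with cycloheximide, at -0.68 (-0.99 to -0.38) for SRSF1 and -0.30 (-0.52 to -0.09) for SRSF3, they lay below it. No other SR or TRA2 gene had an interval below 0 in either comparison.

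The remaining SR genes had ratios with harringtonine from -0.75 (SRSF4) to 0.65 (SRSF11) and with cycloheximide from -0.29 (SRSF6) to 0.26 (SRSF10, which represses splicing after heat shock), each with an interval that includes 0. TRA2B, a splicing activator with its own poison exon, had 0.539 in the knockout and 0.408 in wild type with harringtonine, and 0.284 in the knockout and 0.422 in wild type with cycloheximide. Its ratio was 0.69 (0.11 to 1.250) with harringtonine, resting on 46 effective reads in the knockout and 67 in wild type, and -0.13 (-0.58 to 0.31) with cycloheximide. TRA2A had 0.41 (-0.36 to 1.16) with harringtonine and -0.04 (-0.61 to 0.51) with cycloheximide.

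EWSR1, of the FET family, had 0.658 in the knockout and 1.22 in wild type with harringtonine, and 0.560 in the knockout and 0.900 in wild type with cycloheximide, with ratios of -0.60 (-0.96 to -0.26) with harringtonine and -0.24 (-0.48 to -0.003) with cycloheximide. TAF15 was listed on a patch sequence, at 0.961 in the knockout and 0 in wild type with harringtonine, and 0.816 in the knockout and 0 in wild type with cycloheximide. In the authors' deposited table its log ratios, wild type over knockout, are 1.01 with harringtonine and 0.37 with cycloheximide, which are not the ratio of those means, so no ratio is given for TAF15.

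Across the list, knockout over wild type with cycloheximide had a median ratio of -0.24 and ran from -0.85 (HNRNPH3) to 0.26 (SRSF10). The ratio was below the median gene in 27 of 35. No member was 2-fold or more higher or lower, against 4.43% and 3.24% of all genes compared. Intervals lay below 0 for 15 of 35, against 14.9% of genes, and above 0 for 0, against 14.3%. The interval of PTBP2, which the level filter left out, lay above 0.

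Highly counted genes reach such intervals more easily, so a background of deeply counted genes, those holding 100 or more effective reads in each group compared, was added after the data were seen. There intervals lay below 0 for 14 of 20 members (70%), against 39.2% of genes, and above 0 for none, against 21.6%. The medians of that set were -0.34 for members and -0.14 for genes. Over the 20 members and 680 genes with a level above 1, centred on those genes, the members' median was -0.11. Of these members 60% lay below that centre, against 77.1% of the 35 members on the main centre. Across genes, the Spearman correlation of level with this ratio was -0.45 over the 35 members and -0.21 over the 6045 genes, points that share the same libraries, and level itself contains the densities of the ratio. Listed transcript length had a correlation with the same ratio of -0.45 over the 35 members and 0.05 over the 6045 genes. The part of level or of length in the members' ratios was not tested.

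**Figure D2:**
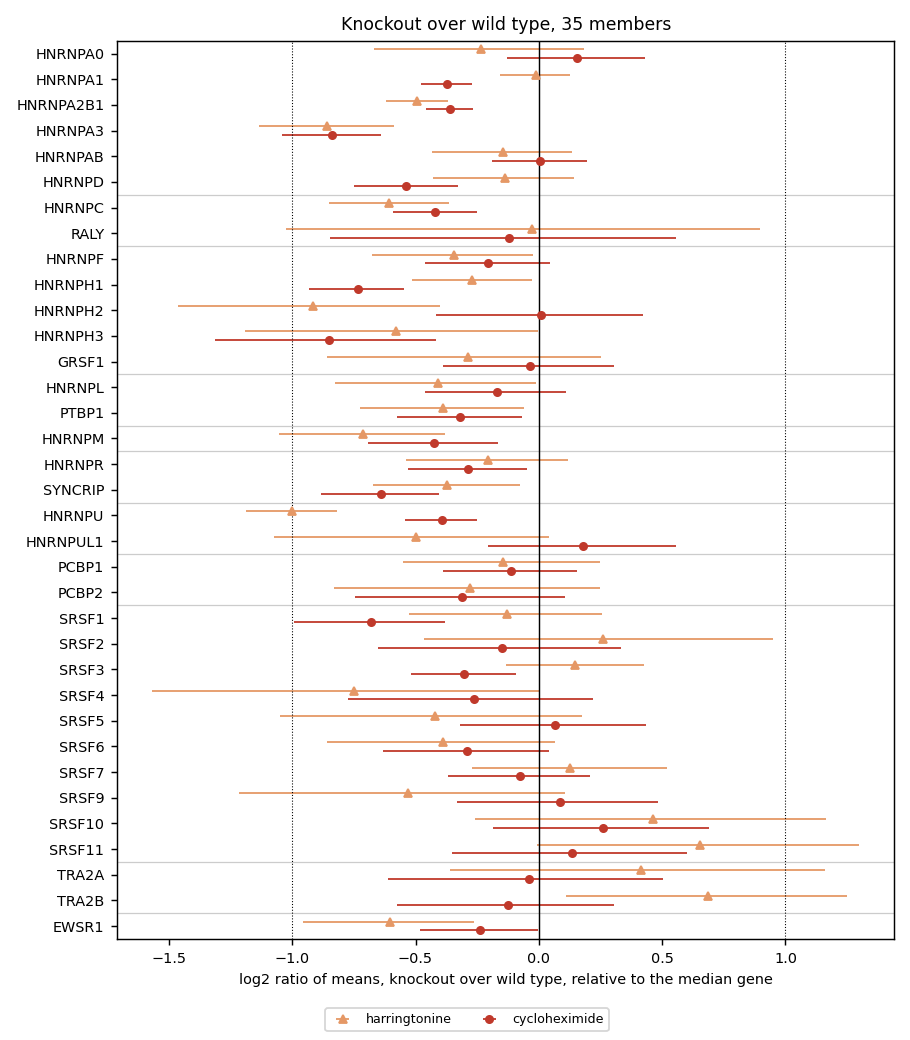
Knockout over wild type, log2 ratio relative to the median gene, for the 35 genes by family. Triangles are harringtonine and circles cycloheximide, bars are 95% counting intervals, and dotted lines mark 2-fold. HNRNPU is lowest and TRA2B highest with harringtonine, and HNRNPH3 and HNRNPA3 are lowest with cycloheximide.

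With harringtonine the members' median was -0.29, and 28 of 35 lay below the median gene. The knockout here is 1 library. HNRNPU was the 1 member at least 2-fold lower, against 6.58% of genes, and it sits at the threshold: under upper-quartile scaling and with a pseudocount of 1, no member passed it. None was 2-fold higher, against 6.72%. Intervals lay below 0 for 13, against 10.6%, and among the 35 above 0 for TRA2B alone, against 7.91%. PTBP2, left out by the level filter, also had an interval above 0. Of the deeply counted genes, 8 of 13 members (61.5%) had intervals below 0, against 42.9%, and none above 0, against 18.6%.

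Under both treatments together, which use separate libraries, 22 of 35 members (62.9%) had both ratios below the median gene, against 28.4% of all genes. Both intervals lay below 0 for 10 (28.6%), against 3.46%. Of genes with 100 or more effective reads in every group, a background also added after the data were seen, both ratios were below the median gene in 11 of 13 members (84.6%), against 50.5% of 321 genes, and both intervals lay below 0 for 7 (53.8%), against 24.9%. Without centring, the knockout density was below the wild-type density under both treatments in 31 of 35 (88.6%), against 55% of genes, and under cycloheximide in 35 of 35, against 77.8%. Of genes with 100 or more effective reads in every group, 72.6% were lower under both treatments and 86.6% under cycloheximide. Of members in that set, 13 of 13 were lower in either count.

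Counts by class are given as a description, since the classes were examined with the values known and no difference between them was tested. All 16 HNRNP-named genes compared had a ratio below 0 with harringtonine, and 12 of 16 with cycloheximide. By the centring, all genes compared lie evenly about 0, and deeply counted genes had medians of -0.19 with harringtonine and -0.14 with cycloheximide. With harringtonine HNRNPA1 lay nearest 0 and moved to 0.05 under upper-quartile scaling. Centred on genes with at least 100 effective reads, HNRNPA1 (0.17), HNRNPAB (0.04) and HNRNPD (0.05) lay above 0, and the other HNRNP-named genes kept lay below. Of the 12 SR and TRA2 genes, 5 were below 0 with harringtonine and 8 with cycloheximide. A ratio below 0 with cycloheximide and above 0 with harringtonine was found in 5 of these 12 and in 0 of the other 23, which is 5 of the 35 members (14.3%), against 21.6% of all genes compared. Most of the SR and TRA2 intervals include 0. The interval of the difference between treatments lay off 0 for 3 of 12 SR and TRA2 genes, all above. It lay off 0 for 6 of 16 HNRNP-named genes, 3 above and 3 below. Among all genes compared, 9.89% lay above and 8.73% below. Among genes with 100 or more effective reads in every group, 30.2% lay above and 24.9% below. The part of read depth in the class counts was not tested.

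**Figure D3:**
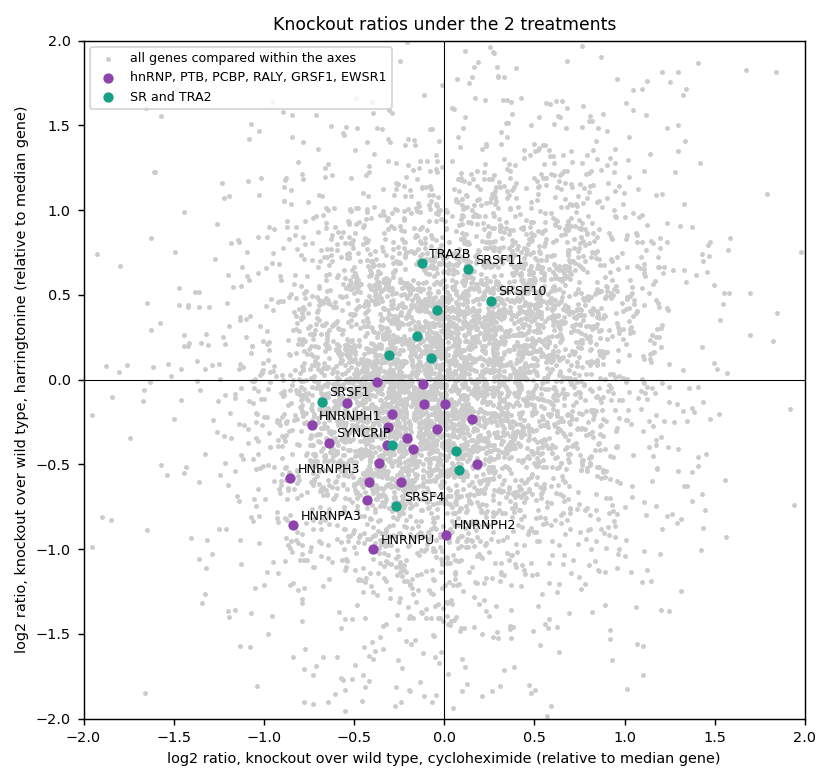
Each point is a gene, with the knockout ratio (log2, relative to the median gene) under cycloheximide on the horizontal axis and under harringtonine on the vertical axis. All compared genes within 2 log2 units of 0 are grey (118 lie outside), and the labelled members were picked after their values were seen. The members lie mostly at the lower left, and TRA2B in the upper left.

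The difference between the knockout ratios, harringtonine minus cycloheximide, had a median of -0.03. Its interval lay below 0 for HNRNPH2, at -0.93 (-1.57 to -0.28), HNRNPUL1, at -0.68 (-1.33 to -0.03), and HNRNPU, at -0.61 (-0.84 to -0.37), 3 of 35 against 8.73% of genes. It lay above 0 for 6 of 35, against 9.89%: TRA2B at 0.81 (0.12 to 1.501), SRSF1 at 0.55, HNRNPH1 at 0.47, SRSF3 at 0.45, HNRNPD at 0.40 and HNRNPA1 at 0.36. No member's difference reached 2-fold, against 9.41% of genes higher and 10.7% lower. Of the deeply counted genes, intervals lay above 0 for 4 of 13 members (30.8%), against 30.2%, and below 0 for 1 (7.69%), against 24.9%, so members did not stand above that background.

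Harringtonine over cycloheximide compares the density of each gene between the treatments, and 1 density per gene does not show where on the mRNA the footprints lie. In the knockout, this ratio had a median of 0.24, from -0.42 (SRSF9) to 0.65 (TRA2B). No member was 2-fold higher, against 5.51%, or lower, against 6.82%. Intervals lay above 0 for 9, against 8.95%, and below 0 for 0, against 6.4%. Of the deeply counted genes, 7 of 13 members (53.8%) had intervals above 0, against 37.4%, and 0 below, against 14.7%. HNRNPH2 was at 0.21 (-0.41 to 0.80) and HNRNPU at 0.26 (0.04 to 0.47) in the knockout. In wild type HNRNPH2 was highest of the members at 1.14 (0.83 to 1.44), followed by HNRNPU at 0.87 (0.77 to 0.97), HNRNPM at 0.61 (0.42 to 0.80) and HNRNPUL1 at 0.53 (0.20 to 0.85). The members' median was 0.17, HNRNPH2 was the 1 member at least 2-fold higher, against 3.41% of genes, and none was 2-fold lower, against 3.31%. Intervals lay above 0 for 13, against 15.7%, and below 0 for HNRNPA1, against 11%. Of the deeply counted genes, 50% of 26 members and 45.3% of genes had intervals above 0, close shares, and 1 member was below 0, against 16.7%. The members' median on that set's own centre was -0.013. These values use the same means as the knockout ratios above and are no further evidence for them.

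**Figure D4:**
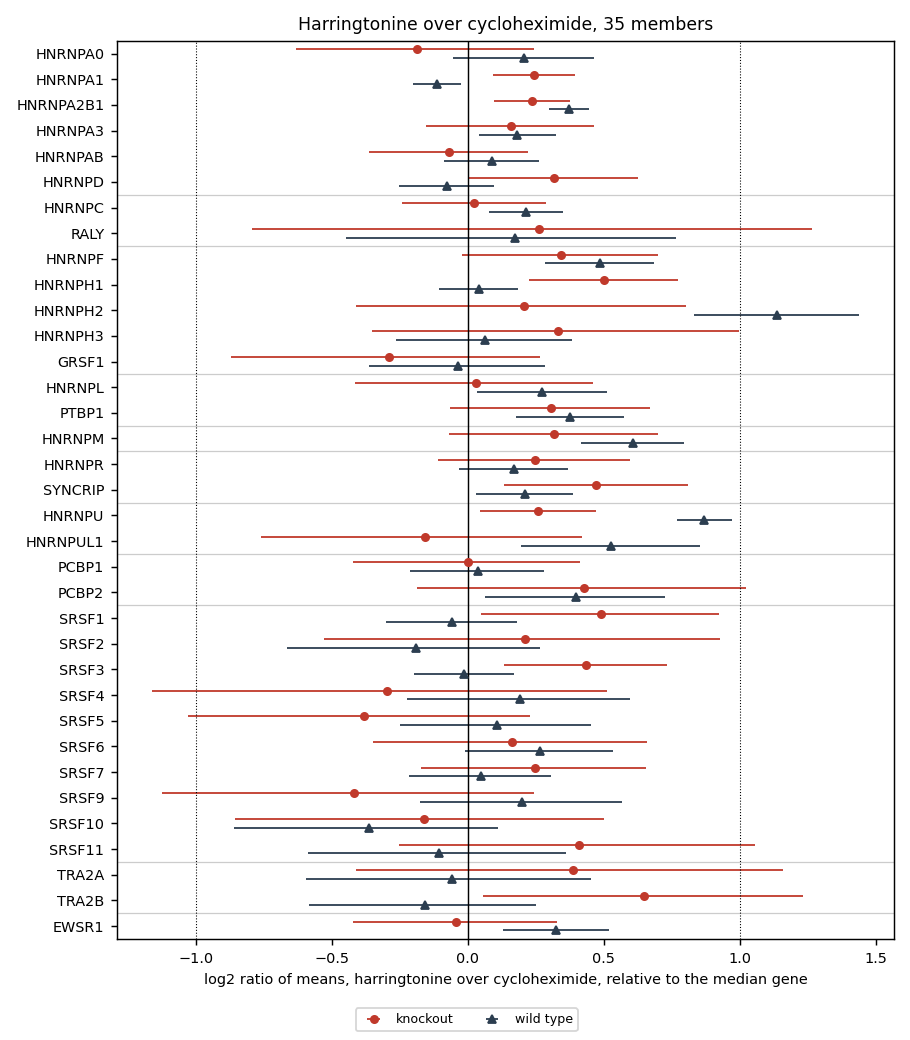
Harringtonine over cycloheximide, log2 ratio relative to the median gene, in the knockout and in wild type for the 35 genes by family. Bars are 95% counting intervals. HNRNPH2 and HNRNPU are highest in wild type, and TRA2B is highest in the knockout.

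The authors' deposited table also holds values named TE, which the header does not expand. Their difference from the deposited log ratios was equal under both treatments in 12241 of 12241 rows (tolerance 1e-06), so it is 1 term per gene. In the authors' deposited table it had a median of -0.02 over the 35 members and 0.01 over 6004 genes, from -0.40 (HNRNPA3) to 0.22 (HNRNPA0). It was below 0 for 18 members and above 0 for 17. HNRNPD, at -0.26, HNRNPH2, at -0.24, and HNRNPH1, at -0.21, also had low terms. The term and the knockout ratio with cycloheximide had a Spearman correlation of 0.44 over the 35 members and 0.003 over the 6004 genes, points from 1 table with what the term measures unstated. With the term subtracted and centred again, an alternative added after the data were seen, 25 of 35 members were below 0 with harringtonine (median -0.34) and 27 with cycloheximide (median -0.24). HNRNPU, at -1.07, was then the 1 member 2-fold lower with harringtonine, against 7.4% of genes.

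**Figure D5:**
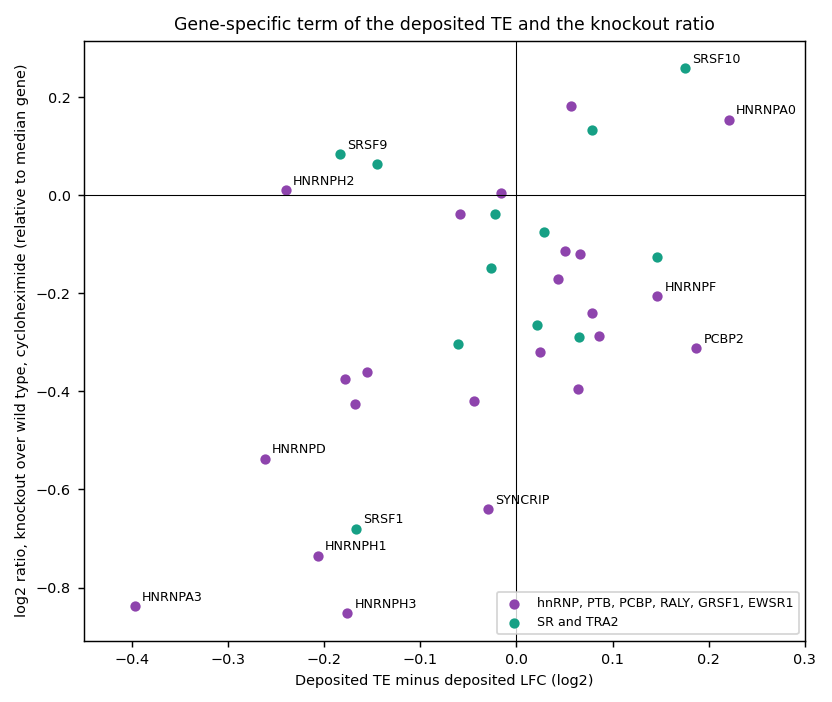
The term by which the deposited TE differs from the deposited log ratio (horizontal axis, log2) against the knockout ratio with cycloheximide (vertical axis, log2 relative to the median gene) for the 35 members, 1 point a gene. HNRNPA3 is at the lower left end and HNRNPA0 at the right end, and the labelled genes were picked after their values were seen.

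Partners of these families were read from 4 lists. Of the kinases that phosphorylate SR proteins and their importer, 5 of 8 were compared, 4 below and 1 above the median gene with cycloheximide. Intervals lay below 0 for SRPK1, at -0.78 (-1.21 to -0.37), and the importer TNPO3, at -0.51 (-0.96 to -0.08), against 14.9% of all genes compared. With harringtonine SRPK1 was at 0.07 (-0.45 to 0.57) and 2 of the 5 were below 0. Of the arginine methyltransferases and importers of hnRNP and FET proteins, 5 of 6 were compared. With harringtonine 2 were below 0 and 3 above (median 0.22). The highest, at 1.24, was the 1 gene at least 2-fold higher, against 6.72% of all genes compared. With cycloheximide 4 were below 0 and 1 above (median -0.04). PRMT1, which methylates many of them, was at -0.54 (-1.16 to 0.04) with harringtonine and -0.31 (-0.70 to 0.06) with cycloheximide. Of the nonsense-mediated decay factors 8 of 10 were compared, 4 on each side under either treatment, with SMG1, the kinase of UPF1, at 0.013 (-0.51 to 0.51) with harringtonine and 0.36 (0.03 to 0.69) with cycloheximide. Of other splicing regulators 22 of 31 were compared, and 19 were below 0 with harringtonine (median -0.31) and 18 with cycloheximide (median -0.23). With harringtonine their intervals lay below 0 for 9 of 22, against 13 of 35 members and 10.6% of all genes compared. With cycloheximide they lay below 0 for 8 of 22, against 15 of 35 members and 14.9% of genes, and above 0 for 1. Low ratios were thus shared with this related list. NONO, a paraspeckle protein, had 2.63 in the knockout and 6.41 in wild type with harringtonine, and 1.87 in the knockout and 3.73 in wild type with cycloheximide, giving -0.998 (-1.254 to -0.75) with harringtonine and -0.56 (-0.75 to -0.36) with cycloheximide.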

How the data were processed

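Ribosome footprints were measured in 12 samples in 4 groups, given by the labels' titles. TopHat and hg19 are named for alignment and build in the submitters' processing notes; for the counting tool and its annotation, the sources used here give no name. The authors deposited 1 table of group means: per the file headers, average densities, a signal per gene on an unstated scale. The deposited log ratios (LFC) and TE are log2 values, wild type over knockout, entered as a score because spreadsheet errors stand among them; for that reason the deposited knockout signal is entered as another kind of value. No value per sample was used, so the planned fallback of ratios without a test applies.

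Set aside were 918 rows without a knockout value, 290 on alternate sequences and 175 in which LFC and the means' own ratio disagreed beyond a tolerance of 1e-06. Of 18043 usable genes, 12091 had no mean at 0, and the 6045 in the upper part by level (above the median, 0.114) were compared without a pseudocount. Ratios were centred on medians of -0.28 (harringtonine) and -0.44 (cycloheximide) for knockout over wild type, and, for harringtonine over cycloheximide, on 0.27 in the knockout and 0.11 in wild type. Calls are at 2-fold. Effective reads came from the steps between low densities (tolerance 0.02), tested on simulated data; intervals are 95% Clopper-Pearson, and for differences of ratios a normal approximation.

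Named genes are the 38 members, CNBP and up to 3 per related list, ranked by ratio over counting error; HNRNPA1L2 and HNRNPCL1 were added after their values were seen. The members and lists were chosen with earlier results of these data known. The share of members below the median gene replaced their number in the comparison of settings, because filters change the number of members; that was decided after the settings' results were seen. Python 3.11.15, numpy 2.4.6, pandas 2.3.3, scipy 1.17.1 and matplotlib 3.10.9 were used.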

Additional observations from a re-analysis of the deposited data

How the results depend on the processing

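Settings tried were no centring, upper-quartile scaling, pseudocounts of 0.1 and 1, no filter on low values, a level above 1, and at least 100 effective reads; those for the difference between the knockout ratios were added after the data were seen. Medians changed sign in 3 cases: the difference between the knockout ratios without centring and with a pseudocount of 0.1, and harringtonine over cycloheximide in wild type with at least 100 effective reads. The other medians kept their sign. Without centring, knockout over wild type had medians of -0.57 with harringtonine (4 of 35 members at least 2-fold lower, against 12.5% of genes) and -0.68 with cycloheximide (5 of 35, against 14%), shares near those of all genes. Harringtonine over cycloheximide was then 0.52 for knockout cells and 0.28 for wild type, with 11.4% of members below 0 in each, against 31.7% of genes for knockout cells and 40.1% for wild type, and the difference was 0.13. With a level above 1, medians came to -0.11 (knockout over wild type, cycloheximide), 0.11 for harringtonine over cycloheximide in the knockout and -0.22 for the difference, with 1 member 2-fold lower in the difference and 0 with harringtonine. For knockout over wild type, 60% of members were then below 0 with cycloheximide and 85% with harringtonine. With at least 100 effective reads, medians came to -0.16 (knockout over wild type, harringtonine, 0 members 2-fold lower), and, for harringtonine over cycloheximide, 0.099 in the knockout and -0.013 in wild type (0 members 2-fold higher, 57.7% below 0). Upper-quartile scaling gave 0 members 2-fold lower with harringtonine and 0.12 for harringtonine over cycloheximide in wild type. A pseudocount of 1 gave 0 members 2-fold lower with harringtonine, and harringtonine over cycloheximide of 0.15 in knockout cells and 0.11 in wild type, there with 0 members 2-fold higher. The cause of these shifts was not tested. No paired analysis was possible because the table holds only 1 mean per group, and for the same reason no replicate could be left out. Depth limits RALY most among the genes compared, with 14 effective reads in the knockout and 34 in wild type with harringtonine.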
